A study of Mus musculus with 7 samples.

Results

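The retinoic acid carrier and response genes described here are Crabp1, Crabp2, Rarb, Cyp26a1, Stra6, Stra8 and Aldh1a2, 7 of the 31498 genes counted. They were taken by gene name from GENCODE M1 (mouse build mm9), and all 7 had at least 200 exonic bases of their own. The cells were F123, an embryonic stem (ES) cell line from a cross between a CAST and a 129 mouse. The wild type clone kept both copies of the distal Sox2 super-enhancer. The CAST+/129- clone had lost the copy on the 129 allele, the CAST-/129+ clone had lost the copy on the CAST allele, and the CAST-/129- clone had lost both. Each genotype was 1 clone and 1 strand-specific RNA-seq library, deletions were made with Cas9, clones were picked on mouse embryonic fibroblast feeders, and RNA was taken after 2 passages on gelatin without feeders. The 3 mutant clones are all set against the same wild type library. With 1 library per genotype there was no replicate, so no test was made. A difference between clones cannot be told apart from a difference between genotypes. Histone marks came from 3 further libraries of unedited cells: H3K4me3 in F123, H3K27ac in F123 and H3K27ac in J1, an ES cell line of 129 background. The 2 alleles were not separated.

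Retinoic acid is made from retinol (vitamin A) inside the cell. STRA6 takes up retinol, retinol and retinal dehydrogenases and then ALDH1A2 oxidize it, and CRABP1 and CRABP2 bind the retinoic acid in the cytoplasm. CRABP2 hands it to retinoic acid receptors in the nucleus, among them RARB, which bind DNA together with retinoid X receptors. CYP26A1 oxidizes retinoic acid for removal. Rarb, Cyp26a1, Crabp2 and Stra8 are textbook targets of retinoic acid, and Stra8 is best known for the entry of germ cells into meiosis. ES cells are kept as stem cells in its absence and differentiate when it is added.

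Retinoic acid receptors bind pairs of the repeat unit AGGTCA, its variant AGTTCA, the variant GGGTCA or the variant GGTTCA in the same direction with a spacer of 1, 2 or 5 bases. These letters were searched on both strands within 2 kb on each side of the main annotated start of each gene in the mm9 genome, and overlaps with other motifs were not removed. The 4 matches found near the 7 genes are shown because they separate members by position and spacer. Each is written on the strand of its gene with 6 bases on either side, and capitals mark the repeat units.
Crabp2, spacer 2: gtccccAGTTCAccAGGTCAgggctg
Rarb, spacer 5: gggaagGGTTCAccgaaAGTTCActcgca
Cyp26a1, spacer 5, distal: ctgcagGGGTCAcaggcGGGTCAggctaa
Cyp26a1, spacer 5, proximal: taaagaTGAACTttgggTGAACTaatttg
The Rarb pair (chr14:17408027-17408043) ended at position -41 from the start of Rarb-202. The proximal Cyp26a1 pair (chr19:37772266-37772282) ended at position -16 from the Cyp26a1 start and runs opposite to the gene, so its units read AGTTCA on the other strand. The distal Cyp26a1 pair (chr19:37770399-37770415) began at position -1899, and the Crabp2 pair (chr3:87751447-87751460) began at position -1141. Crabp1, Stra6, Stra8 and Aldh1a2 had no match in the window, which says only that pairs of these letters are not there. Single units were not searched. Of 21417 autosomal protein-coding genes, 7.16% held a match of any spacer in a window of this size and 1.25% held one with spacer 5. In the 300 bases before the start, 16 genes, 0.0747%, held a spacer 5 match, Rarb and Cyp26a1 among them.

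The 300 bases before the start of these 2 genes and of Stra8 follow, the first 2 because they carry the spacer 5 pair and the last because Stra8 had the highest wild type level of the members. Each is on the strand of its gene, and capitals mark only the repeat units of a pair found by the search. Single units stay in lower case.
Rarb, minus strand, chr14:17407987-17408286: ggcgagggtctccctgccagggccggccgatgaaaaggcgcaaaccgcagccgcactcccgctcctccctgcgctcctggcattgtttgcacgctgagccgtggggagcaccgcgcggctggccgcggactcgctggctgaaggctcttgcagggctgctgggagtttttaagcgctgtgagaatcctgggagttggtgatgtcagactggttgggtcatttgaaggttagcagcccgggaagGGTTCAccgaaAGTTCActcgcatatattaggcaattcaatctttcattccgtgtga
Cyp26a1, plus strand, chr19:37771998-37772297: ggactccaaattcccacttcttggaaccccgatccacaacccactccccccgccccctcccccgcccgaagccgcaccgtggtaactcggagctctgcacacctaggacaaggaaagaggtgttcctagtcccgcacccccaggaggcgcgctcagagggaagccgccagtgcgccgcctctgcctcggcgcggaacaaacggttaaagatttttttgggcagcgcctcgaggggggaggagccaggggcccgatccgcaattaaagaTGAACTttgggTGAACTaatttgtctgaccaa
Stra8, plus strand, chr6:34869863-34870162: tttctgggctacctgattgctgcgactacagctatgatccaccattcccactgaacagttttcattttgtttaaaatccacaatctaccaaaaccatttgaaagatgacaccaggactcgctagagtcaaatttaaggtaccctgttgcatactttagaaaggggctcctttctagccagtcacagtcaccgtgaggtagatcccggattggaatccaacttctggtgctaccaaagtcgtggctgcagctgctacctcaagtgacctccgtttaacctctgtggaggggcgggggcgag
The observed to expected ratio of CpG in this window was 0.794 for Rarb, 0.763 for Cyp26a1 and 0.458 for Stra8, beside a median of 0.505 over all these genes. Aldh1a2 had the highest ratio of the 7 at 1.03 and Stra6 the lowest at 0.175.

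Levels are given as FPKM, distinct sense alignments per kb of exon, scaled to the alignments on genes of each library. Library sizes on genes ran from 5831199 alignments for CAST-/129- and 6058939 for CAST-/129+ to 12458881 for CAST+/129- and 24848422 for wild type, so 1 alignment on Stra8 was worth 0.0223 FPKM in wild type and 0.0952 FPKM in CAST-/129-. Ranges after FPKM values are exact 95% Poisson intervals of the count, and ranges after ratios are exact binomial intervals. They cover counting error only, and since mates of a pair and segments of a spliced read were counted apart, they are too narrow. A gene was said to have risen or fallen when FPKM + 4 differed at least 3-fold from wild type. A gene under 8 FPKM in wild type cannot fall by this rule, so among the 7 genes only Stra8 and Crabp1 could be called lower, and counts of genes that fell leave out all low genes. Sox2, the gene whose enhancer was removed, stood at 174.7 FPKM in wild type. CAST+/129- had 82.0 FPKM, CAST-/129+ had 73.1 and CAST-/129- had 7.40, or 46.9%, 41.8% and 4.23% of the wild type level. These values count distinct alignments on Sox2, 10667 in wild type and 2510, 1088 and 106 in the mutant clones. The reads behind them were 26058, 3387, 1428 and 120, so collapsing took the largest share from wild type.

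Stra8 was lower in all 3 mutant clones. Crabp2 was higher in all 3 but passed the threshold only in CAST-/129-. Crabp1 was higher in CAST-/129- and lower in CAST+/129-, though the latter did not pass the threshold. Cyp26a1 was higher in CAST-/129+ and CAST-/129-, and Rarb, Stra6 and Aldh1a2 stayed under 2 FPKM throughout. In bulk RNA, fewer cells of a type and less RNA per cell cannot be told apart. In CAST+/129-, none of the 7 genes rose (0.321% of all genes did) and 1 fell (0.305% of all genes). In CAST-/129+, 1 rose, Cyp26a1 (0.473% of all genes), and 1 fell (0.330%). In CAST-/129-, 3 rose, Crabp1, Crabp2 and Cyp26a1 (0.819%), and 1 fell (0.511%). The gene that fell was Stra8 each time. The 7 were chosen with results of these libraries known, so these counts are a description of the members. The median log2 ratio of FPKM + 4 over the 7 genes was -0.10, -0.01 and 0.02 in the 3 clones, beside a median of 0 over all genes.

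**Figure D1:**
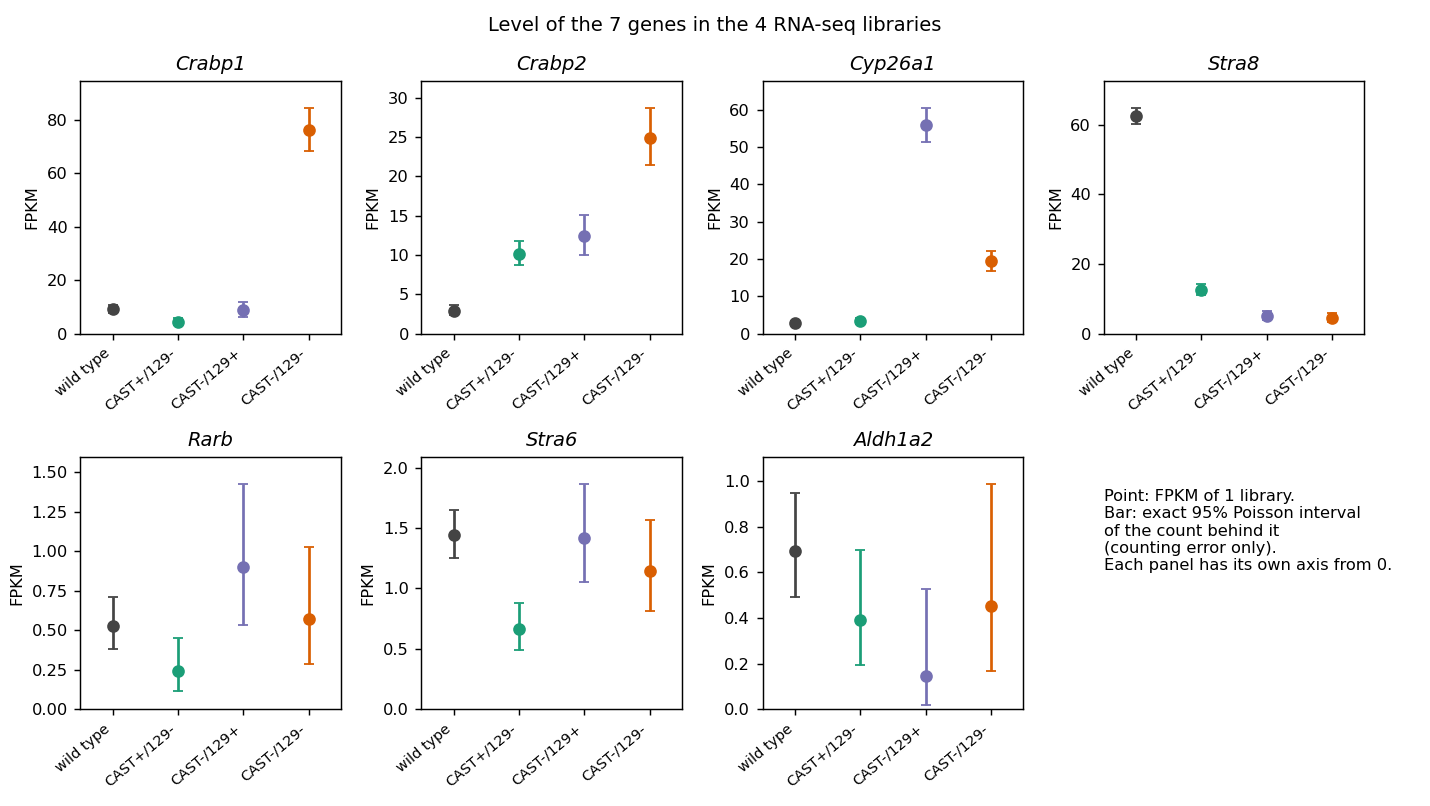
FPKM (vertical axis, from 0, with a scale for each panel) of each gene in the wild type, CAST+/129-, CAST-/129+ and CAST-/129- libraries, with exact 95% Poisson intervals as bars. Crabp1 was highest in CAST-/129- (76.1 FPKM), Cyp26a1 was highest in CAST-/129+ (55.8 FPKM), and Stra8 was highest in wild type (62.4 FPKM).

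Crabp1, the first of the carriers (chr9:54612555-54620917, plus strand), stood at 9.13 FPKM (7.85 to 10.6) in wild type. CAST+/129- had 4.40 FPKM (3.20 to 5.91), CAST-/129+ had 8.64 (6.23 to 11.7) and CAST-/129- had 76.1 (68.4 to 84.5). These rest on 182, 44, 42 and 356 alignments. The biallelic clone lay far above the others, CAST+/129- lay lowest, and the intervals of wild type and CAST-/129+ overlapped. The level in CAST-/129- was 8.34-fold that of wild type (6.95 to 10.02), a log2 ratio of FPKM + 4 of 2.61, and 74 of 31498 genes had a larger one. Against the monoallelic clones it was 17.3-fold that of CAST+/129- (12.6 to 24.2) and 8.81-fold that of CAST-/129+ (6.38 to 12.4). Counted as reads before collapsing to distinct alignments, Crabp1 in CAST-/129- came to 1292% of wild type in place of 834%. In CAST+/129- its log2 ratio of -0.64 did not pass the threshold.

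Crabp2, the carrier that delivers retinoic acid to the nucleus (chr3:87752588-87757298, plus strand), stood at 2.92 FPKM (2.37 to 3.57) in wild type. CAST+/129- had 10.1 FPKM (8.66 to 11.8), CAST-/129+ had 12.4 (10.05 to 15.05) and CAST-/129- had 24.9 (21.5 to 28.7), from 96, 167, 99 and 192 alignments. Wild type was lowest, the monoallelic clones lay between with overlapping intervals, and the biallelic clone was highest. Its ratio to wild type was 3.47 (2.68 to 4.51), 4.23 (3.16 to 5.66) and 8.52 (6.64 to 11.01). Counted as reads before collapsing, Crabp2 came to 412%, 579% and 1263% of wild type. With 4 added to each FPKM the log2 ratios were 1.03, 1.24 and 2.06, and only the last passed the threshold. In CAST-/129- Crabp2 was 2.46-fold the level of CAST+/129- (1.99 to 3.04) and 2.02-fold that of CAST-/129+ (1.57 to 2.59). The 2 carriers thus had different orders, since Crabp1 in the monoallelic clones was at 48.2% and 94.6% of wild type, the second of which was 118.2% by reads before collapsing. The longest run of identical bases between their transcripts was 11, shorter than a read of 100 bases.

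Cyp26a1, the enzyme that clears retinoic acid (chr19:37772298-37776018, plus strand), stood at 2.91 FPKM (2.42 to 3.45) in wild type. CAST+/129- had 3.40 FPKM (2.67 to 4.26), CAST-/129+ had 55.8 (51.4 to 60.4) and CAST-/129- had 19.3 (16.8 to 22.2), from 128, 75, 599 and 200 alignments. The clones fell into a low pair with overlapping intervals and a high pair that differed from each other. The level was 19.2-fold that of wild type in CAST-/129+ (15.8 to 23.4) and 6.66-fold in CAST-/129- (5.31 to 8.38). Counted as reads before collapsing, Cyp26a1 came to 2825% of wild type in CAST-/129+ and 940% in CAST-/129-. The log2 ratios of FPKM + 4 were 0.10, 3.11 and 1.76. In CAST-/129+, 33 of 31498 genes had a larger ratio. The biallelic clone had 0.347 of the CAST-/129+ level (0.294 to 0.408), and the monoallelic clones differed 16.4-fold (12.9 to 21.2). Sox2 stood at 82.0 FPKM in CAST+/129- and 73.1 in CAST-/129+, and its part in the Cyp26a1 levels was not tested.

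Stra8 (chr6:34870163-34889342, plus strand), the retinoic acid target of premeiotic germ cells, stood at 62.4 FPKM (60.1 to 64.8) in wild type. CAST+/129- had 12.6 FPKM (11.1 to 14.1), CAST-/129+ had 5.04 (3.797 to 6.56) and CAST-/129- had 4.38 (3.21 to 5.84), from 2794, 282, 55 and 46 alignments. Wild type was highest, CAST+/129- was next, and the other 2 clones overlapped. Of the wild type level of Stra8, CAST+/129- kept 20.1% (17.7 to 22.8), CAST-/129+ kept 8.07% (6.07 to 10.54) and CAST-/129- kept 7.02% (5.12 to 9.38). The log2 ratios of FPKM + 4 were -2.004, -2.88 and -2.99. Of the 31498 genes, 31, 3 and 6 had a lower ratio in the 3 clones. CAST-/129+ had 0.401 of the CAST+/129- level (0.295 to 0.537), and CAST-/129- had 0.869 of the CAST-/129+ level (0.574 to 1.31), an interval that holds 1.

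The receptor Rarb (chr14:17263356-17651381, minus strand) stood at 0.526 FPKM in wild type, while CAST+/129- had 0.244, CAST-/129+ had 0.902 and CAST-/129- had 0.573, from 43, 10, 18 and 11 alignments. Ranked by level, libraries next to each other had overlapping intervals, while CAST+/129- and CAST-/129+, the lowest and the highest, did not. The ratio to wild type was 0.464 (0.208 to 0.937), 1.72 (0.932 to 3.04) and 1.09 (0.507 to 2.15). The monoallelic clones differed 3.70-fold from each other (1.62 to 8.97). Rarb carries the spacer 5 pair ending at position -41. Cyp26a1 carries the proximal pair ending at -16 and the distal pair beginning at -1899, both with spacer 5. In CAST-/129+ Rarb had 0.902 FPKM and Cyp26a1 had 55.8, and the part of the pairs in these levels was not tested. Both exon blocks used only by the longer Rarb transcripts, whose start lies at position -243395 from that of Rarb-202, had 0 alignments in the 4 libraries, and the block at the Rarb-202 start had 5, 2, 3 and 2. Introns of Rarb held 126, 69, 67 and 32 sense alignments, more than its exons in every library. The gene spans 388026 bases, most of them intron, so per base the introns held fewer alignments than the exons.

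The retinol receptor Stra6 (chr9:57911595-58001803, plus strand) stood at 1.44 FPKM (1.25 to 1.65) in wild type. CAST+/129- had 0.661 FPKM (0.487 to 0.876), CAST-/129+ had 1.42 (1.05 to 1.87) and CAST-/129- had 1.15 (0.816 to 1.57). CAST+/129- was lowest, at 45.8% of wild type (32.7 to 62.9), and its interval overlapped only that of CAST-/129-. Counted as reads before collapsing, Stra6 came to 149.6% of wild type in CAST-/129+ in place of 98.1% and to 122.8% in CAST-/129- in place of 79.5%. Aldh1a2, the retinal dehydrogenase that makes retinoic acid (chr9:71063596-71144050, plus strand), had 0.693, 0.390, 0.146 and 0.454 FPKM, from 39, 11, 2 and 6 alignments. The 2 alignments in CAST-/129+ were 21.0% of the wild type rate with an interval from 2.46% to 81.2%.

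The differences of Crabp1 in CAST-/129-, of Stra8, and of Cyp26a1 in CAST-/129+ were spread along the transcripts. Crabp1 counts in its 4 exon blocks were 34, 43, 49 and 56 in wild type and at least 66 each in the CAST-/129- library, the smallest of the 4. Stra8 had 0 alignments in its first block, of 23 bases, in every library. In the other 9 blocks it had 113 to 742 in wild type and 2 to 11 in CAST-/129-. Cyp26a1 in CAST-/129+ ran from 36 in its first block to 240 in its last. Other differences were less even, in counts not scaled to library size. Cyp26a1 in CAST-/129- had 18 in its first block and 46 in its last, beside 7 and 62 in wild type. Crabp2 in CAST-/129- had 52 in block 2 and 58 in block 4, beside 10 and 47 in wild type. Antisense alignments on Stra8 numbered 92, 14, 0 and 4, and on Crabp1 0 in all libraries. No exonic base of the members was shared with another gene of the same strand.

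**Figure D2:**
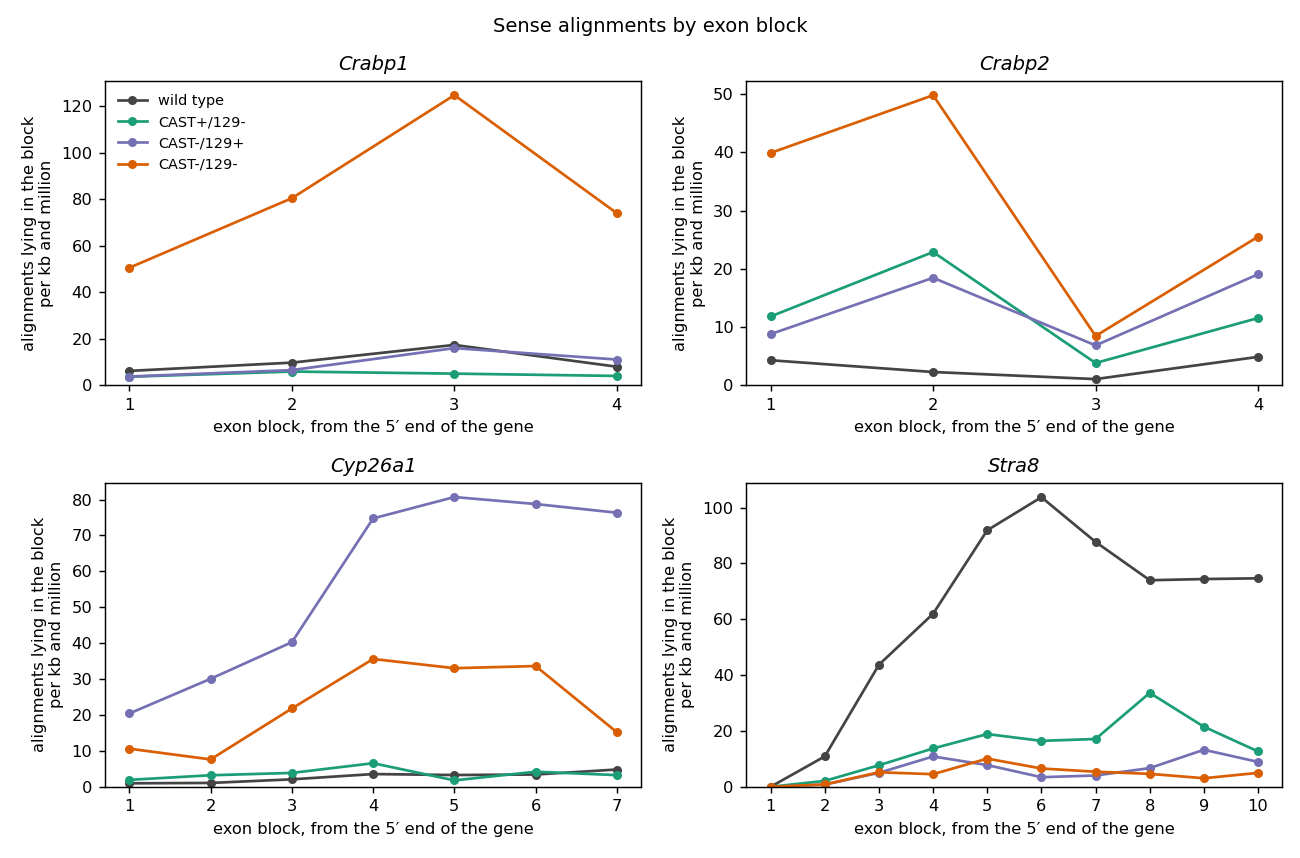
Sense alignments per kb of exon block, scaled to library size (vertical axes, from 0) against the block number from the 5′ end, for 4 genes and 4 libraries. The Crabp1 line of CAST-/129- lies above the others in all 4 blocks, and the Stra8 line of wild type lies above the others in blocks 2 to 10.

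For each member that passed the threshold in CAST-/129-, the genes with the most similar pattern were ranked by Euclidean distance over log2(FPKM + 4) in the 4 libraries, centred on each gene's mean. For Stra8 they were Tbx3 (distance 0.240), Gm7325, Tcl1, Klf4 and Pck2. Tbx3 had 101.1, 18.6, 10.4 and 10.4 FPKM in the order of the clones given above. For Crabp2 they were Bmp1 (0.0693), Epha1, Cald1, Cd248 and Arl4c, and Bmp1 had 3.29, 11.6, 14.4 and 27.5 FPKM. For Crabp1 they were Ccl8 (0.348), B2m, Dcn, Mmp3 and Efemp1, of which Dcn and Mmp3 are in the fibroblast marker list. Dcn had 0.0623, 1.74, 1.36 and 30.3 FPKM. For Cyp26a1 they were Prl2a1 (0.522), Amot, Lhx1, Dgkk and Sfrp5, and Lhx1 had 0.0488, 0.117, 14.9 and 10.3 FPKM. The distances were smallest for Crabp2 and largest for Cyp26a1 and Crabp1, and all rest on 4 values per gene.

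Genes around the members mostly did not move with them. Among protein-coding genes with a mean of at least 1 FPKM starting within 500 kb, none passed the threshold near Crabp1, Rarb, Cyp26a1 or Aldh1a2 in any clone (9, 3, 9 and 1 genes). Near Crabp2, 1 of 23 genes rose: Nes, the intermediate filament gene nestin, which starts 22.4 kb away and had 1.80, 14.3, 10.5 and 19.9 FPKM in the 4 libraries, wild type first. It passed the threshold in CAST+/129- and CAST-/129-. Near Stra8, 1 of 7 rose in CAST-/129-: Cald1, an actin-binding protein gene 210.7 kb away, from 12.5 to 63.1 FPKM. Near Stra6, 1 of 15 fell in CAST-/129-: Cyp11a1, a steroid synthesis enzyme gene, from 10.9 to 0.773 FPKM. The chromosome medians of the log2 ratio for the members' chromosomes ran from -0.10 to 0.01.

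Of 36 other genes for uptake, carriage, conversion, synthesis, degradation, receptors and coregulators, 0 passed the threshold in CAST+/129- and 0 in CAST-/129-, and 0 fell in CAST-/129+. The median log2 ratio of the 36 was -0.02, 0.01 and 0.02. The receptors with the highest wild type levels were Rarg, at 36.3, 34.8, 21.0 and 23.5 FPKM in the 4 libraries, and Rara, at 18.0, 6.69, 9.24 and 7.99. Neither passed the threshold. Dhrs3, which reduces retinal back to retinol, had 11.7, 2.63, 1.69 and 5.86 FPKM and did not pass either.

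The other genes of synthesis and degradation were near the floor. Aldh1a1 and Aldh1a3, which like Aldh1a2 oxidize retinal, and their relative Aldh1a7 summed to 0.537 FPKM in wild type and to at most 1.11 in a mutant clone. Cyp26b1 and Cyp26c1, the relatives of Cyp26a1, summed to 0.308, 0.331, 0.512 and 2.61 FPKM. Cyp26c1 is the neighbour of Cyp26a1 on chromosome 19 and had 2, 0, 2 and 0 alignments. So within this family only Cyp26a1 was above 3 FPKM in any library.

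Of 18 further retinoic acid response genes, among them Cdx1, Meis1, Nr2f2 and Tgm2, 0 rose and 1 fell in each clone. The gene that fell was Pdgfra, a growth factor receptor gene that is also in the primitive endoderm list, with 22.6 FPKM in wild type and 1.60, 2.55 and 4.48 in the mutant clones. The median log2 ratio was -0.04, -0.01 and 0.10. Lamb1, a laminin gene, had the highest wild type level of the list, at 46.8 FPKM beside 23.6, 32.4 and 39.5, and Bhlhe40, a transcription factor gene, had 15.8 FPKM beside 23.4, 14.4 and 21.8. Neither passed the threshold.

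The meiosis and germ cell list of 17 genes was read beside Stra8. In CAST+/129- 1 rose and 1 fell, in CAST-/129+ 1 rose and 2 fell, and in CAST-/129- 1 rose and 4 fell. Dazl, an RNA-binding protein of germ cells, fell in all 3 clones, with 73.4 FPKM in wild type and 19.4, 13.7 and 5.97 in the others. Sohlh2, a germ cell transcription factor, had 68.1, 20.9, 19.3 and 14.6 FPKM and fell in CAST-/129+ and CAST-/129-. Hormad1 (28.8, 36.6, 29.3 and 6.25 FPKM) and Smc1b (15.3, 10.2, 11.3 and 1.996 FPKM), both proteins of the meiotic chromosome axis, fell only in CAST-/129-. Dppa3 rose in all 3, from 6.86 to 89.4, 108.4 and 31.2 FPKM. Sycp3, of the synaptonemal complex, had 19.2, 7.75, 7.97 and 6.78 FPKM and did not pass. The median log2 ratio of the list was -0.36, -0.29 and -0.57. The list was drawn up with results of these libraries known, so its counts are not independent evidence of a direction.

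Markers of fibroblasts, the cells used as feeders, were read beside the carriers. The 18 fibroblast markers summed to 120.9, 225.3, 264.4 and 910.9 FPKM in the 4 libraries, with 3, 2 and 12 of them risen, and their medians were 0.45, 0.44 and 2.02 on the log2 scale. Col1a1, a collagen gene, had 3.48, 39.0, 38.9 and 174.4 FPKM, and 2 markers, Fap and Lum, were at 0 alignments in wild type while none was at 0 in the mutant clones. The order of these sums was that of the Crabp2 levels. Single markers differed in order: Vim, an intermediate filament gene, made up 83.9 of the 120.9 FPKM in wild type, while Thy1, a surface protein gene, had 11.4, 5.69, 6.28 and 27.7 FPKM and Mmp2, a matrix protease gene, had 8.58, 6.50, 6.90 and 32.9, both lowest in CAST+/129- and highest in CAST-/129- as Crabp1 was. The 10 macrophage markers summed to 14.5, 10.7, 15.3 and 39.5 FPKM, and 2 of them rose in CAST-/129-. The part of such cells in the Crabp1 and Crabp2 levels was not tested.

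Other lists moved beside Cyp26a1 and Stra8. The 10 mesoderm and primitive streak markers summed to 5.94, 68.6, 112.9 and 113.6 FPKM, and 1, 4 and 5 of them rose. Fgf8, a streak signal, had 0.119, 1.01, 19.6 and 21.5 FPKM, low in wild type and CAST+/129- and high in the other clones. Hand1 and Eomes, transcription factor genes that are also in the trophectoderm list, were already higher in CAST+/129-, where Cyp26a1 was not. These 2 genes made up most of the CAST+/129- sum. Hand1 had 0.524, 43.9, 43.8 and 19.8 FPKM, and Eomes had 3.89, 18.3, 28.3 and 13.1. Of 9 trophectoderm markers found, 4, 5 and 4 rose, of 8 neural markers 2, 1 and 1 rose, and of 11 primitive endoderm markers none rose and 3, 2 and 2 fell. The trophectoderm markers summed to 49.4, 375.5, 604.3 and 566.1 FPKM. Of 10 ES cell markers, 1, 1 and 4 fell. Klf4, a transcription factor of the naive state, fell in every mutant clone, from 120.5 to 19.3, 13.9 and 8.29 FPKM, and Nanog, Zfp42 and Esrrb fell in CAST-/129-. Their part in the levels of Cyp26a1 and Stra8 was not tested.

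**Figure D3:**
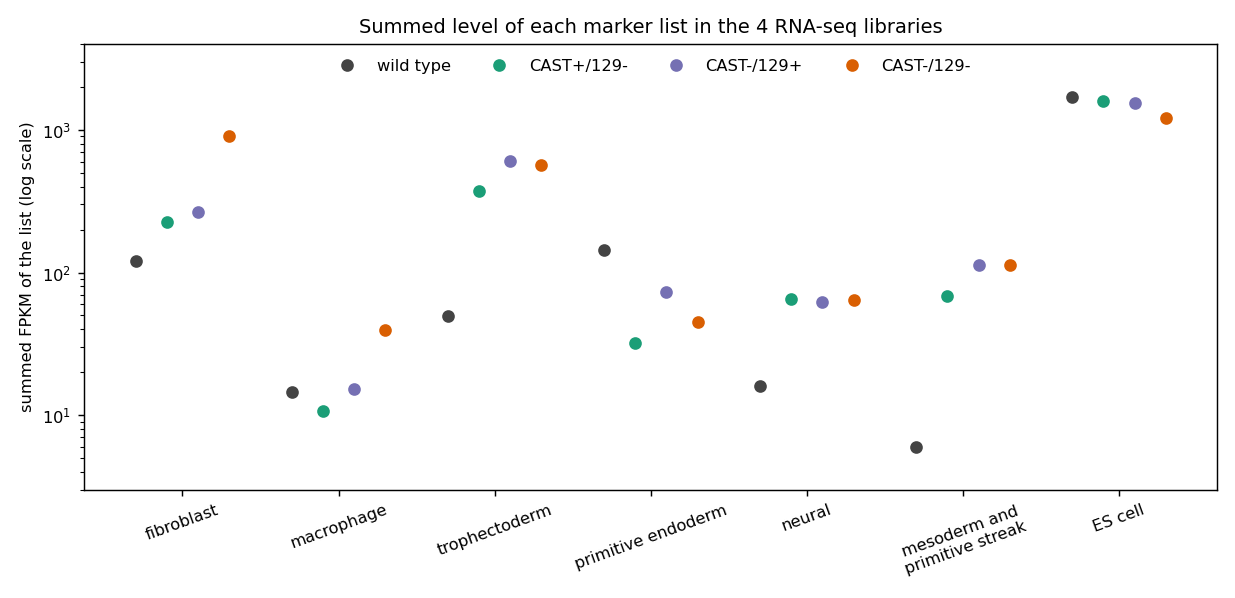
Summed FPKM of each marker list (vertical axis, log scale) in the 4 RNA-seq libraries, 1 point per library. The fibroblast sum is highest in CAST-/129- at 910.9, the mesoderm and primitive streak sum is lowest in wild type at 5.94, and the ES cell sum stays between 1206 and 1708.

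The promoters were read in unedited cells from the number of 5′ ends of distinct ChIP-seq alignments within 2 kb of the main start, as a fold of the autosomal mean of that library. In F123, H3K4me3, the mark of promoters, was over 5 times the mean at 2 of the 7 genes (47.2% of 21062 protein-coding promoters were). H3K27ac, the mark of active promoters and enhancers, was over it at 1 of the 7 in F123 (28.2% of promoters) and at 0 of the 7 in J1 (22.4%). No input library was used here.

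Stra8 was the member with both marks in F123. Its H3K4me3 was 9.09 times the mean (7.42 to 11.04, from 102 alignments) and its H3K27ac 15.2 times (10.8 to 20.9, from 38 alignments). In J1 its H3K27ac was 3.01 times the mean (2.12 to 4.15). H3K4me3 was not centred on the main annotated start. In 500 bp bins it was 34.2 times the mean at 1.75 kb past that start and 4.28 times at 0.25 kb past it. H3K27ac had 22.4 times at 0.25 kb before that start and 28.8 times at 1.25 kb past it. The transcripts Stra8-201 and Stra8-002 start 797 and 851 bases past the main start. Within 2 kb of either of these starts H3K4me3 was 11.1 times the mean. With a window of 1 kb on each side Stra8 was no longer over the H3K4me3 threshold, while Crabp1 and Rarb were over it and Aldh1a2 stayed over it. The count of all promoters over it with 1 kb stayed within 1.5 times of that with 2 kb. Stra8 was among 5761 promoters over the threshold for H3K4me3 in F123 and for H3K27ac in F123 or J1. Their median wild type level was 18.9 FPKM, and Stra8 had 62.4.

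Aldh1a2 had H3K4me3 at 6.06 times the mean (4.71 to 7.69) with 0 H3K27ac alignments in F123, which allows up to 1.20 times the mean, and 0.407 times in J1. Its highest bin, 22.1 times, lay just before the start. Its RNA was at 0.693 FPKM. Of the 4174 promoters with H3K4me3 alone, that is with H3K27ac over the threshold in neither line, 18.8% were under 1 FPKM. Crabp1, Crabp2 and Rarb lay under the H3K4me3 threshold in the 2 kb window at 3.92 (2.85 to 5.27), 3.83 (2.77 to 5.16) and 4.01 (2.93 to 5.37) times the mean. Cyp26a1 had 2.85 times and Stra6 0.535. In Rarb the mark was narrow, 13.6 times the mean in the 500 bp before the start that hold the spacer 5 pair, with 3 H3K27ac alignments there. Crabp1 had 0 H3K27ac alignments in F123 and Cyp26a1 had 1, where 2.50 were expected at the mean of that library. In J1 Crabp1 had 1.71 times the mean (1.06 to 2.61) and Cyp26a1 1.87 times (1.19 to 2.81).

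**Figure D4:**
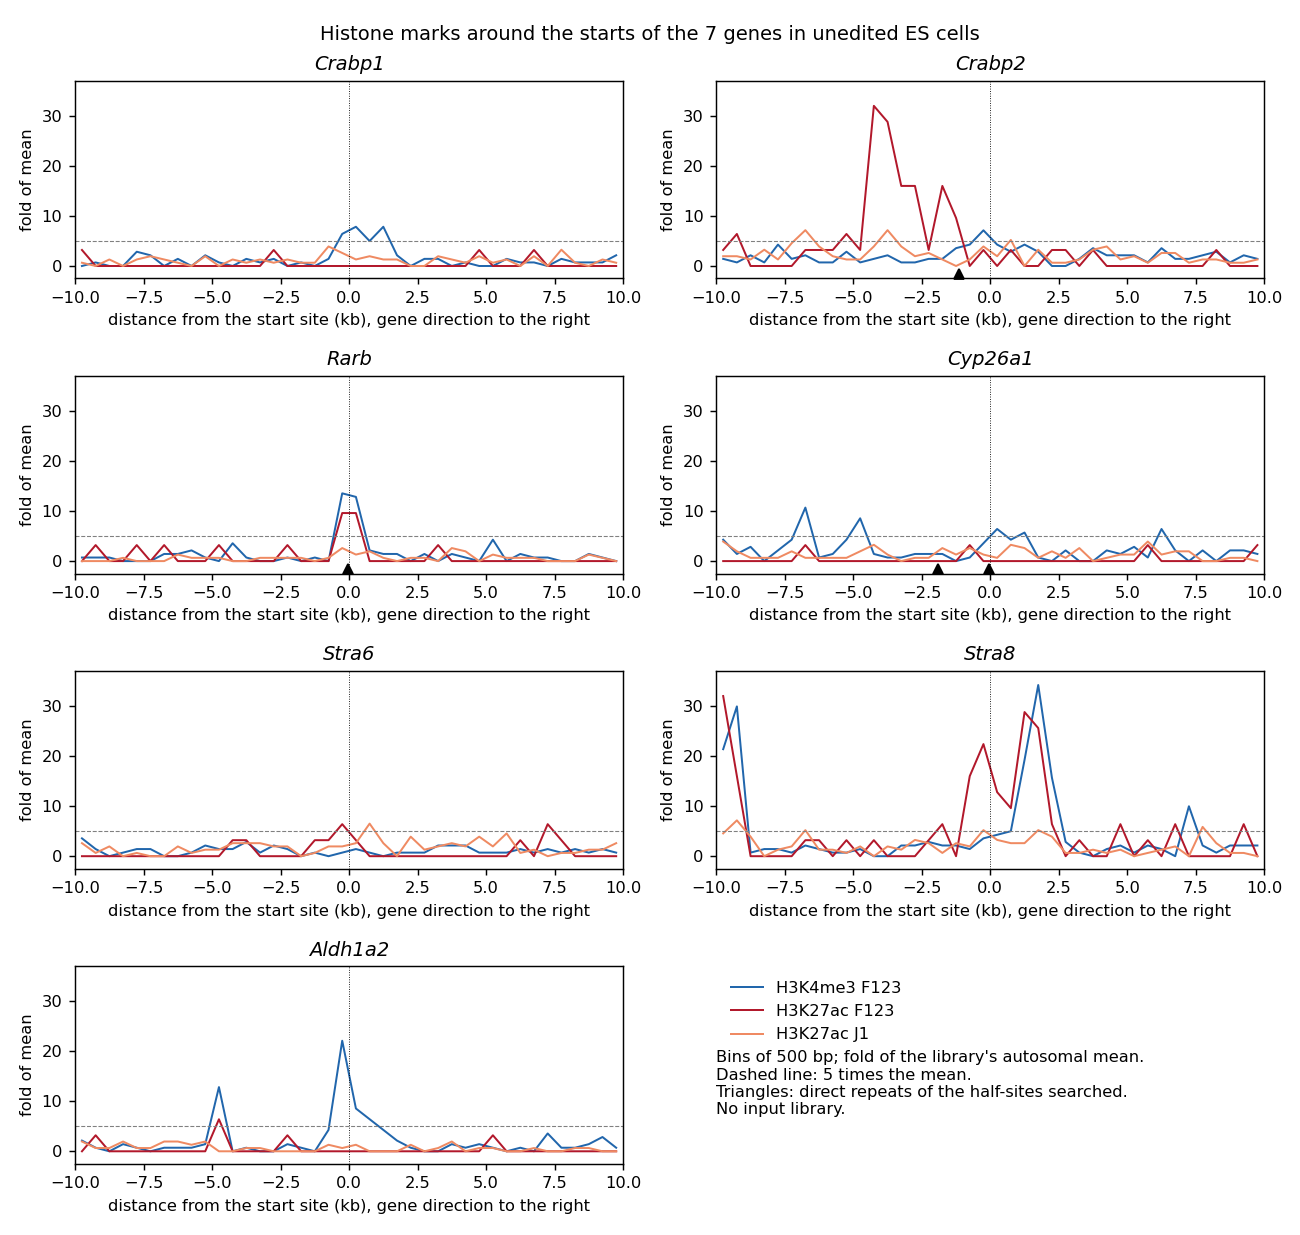
Fold of each library's autosomal mean (vertical axis) in 500 bp bins against the distance from the main start in kb (horizontal axis, gene direction to the right) for H3K4me3 in F123 and H3K27ac in F123 and J1, with triangles at the 4 direct repeats. H3K27ac of F123 reaches 32.0 times the mean at 4.25 kb before Crabp2, and H3K4me3 and H3K27ac of F123 reach 34.2 and 25.6 times the mean at 1.75 kb past the Stra8 start.

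H3K27ac also lay upstream of Crabp2 and downstream of Crabp1 in unedited cells. Before Crabp2, 4 adjoining 1 kb bins from 4.5 to 1.5 kb upstream held 11, 14, 6 and 8 alignments in F123, 17.6, 22.4, 9.61 and 12.8 times the mean, and the last of them, inside the 2 kb promoter window, holds the spacer 2 pair. In J1 the same bins were at 2.61, 5.54, 2.28 and 0.651 times the mean. The higher signal further upstream, 88.1 times the mean at -41.5 kb, lay at the start of Hdgf. Past Crabp1, 3 bins at 36.5 to 38.5 kb from the start had 44.9, 30.4 and 12.8 times the mean in F123 and 20.5, 20.2 and 25.7 times in J1. H3K4me3 there was 1.43, 4.64 and 2.14 times, no annotated gene covers the highest bin (chr9:54648555-54649554), and Crabp1 has the nearest coding start. Within 50 kb of Rarb no 1 kb bin was over 5 times the mean of H3K27ac in either line, and near Cyp26a1 1 bin was in F123, with 5 alignments, and none in J1.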

How the data were processed

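Strand-specific polyA+ RNA-seq libraries of 4 clones and 3 ChIP-seq libraries were used. The authors deposited, for each library, distinct alignment positions with the count of reads behind each one. Per the submitters' processing notes the build was mm9 and the tools Novoalign and Bowtie, with versions not given in the sources used here. RNA alignments were counted here where their midpoint lay on exonic bases of a single GENCODE M1 gene, on the strand opposite to the line, for genes with at least 200 such bases, and scaled to FPKM. A call needed a 3-fold ratio of FPKM + 4. ChIP 5′ ends within 2 kb of a start were divided by the autosomal mean, with a threshold of 5 times. The main start was the most 5′ start of CCDS, else basic, else all transcripts, a choice made after the annotation was seen. Intervals were exact at 95%, and 0 counts were read as a limit of 3 counts. With 1 library per group no test was made.

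The members and gene lists were chosen with earlier results of these data known. Named genes were the 7 members, list genes past 3-fold, up to 3 per role with the highest wild type level, the 5 nearest patterns of each member past 3-fold in CAST-/129-, and Sox2. Genes noted as neighbours were all those past 3-fold. In simulated counts with 100 genes raised and 100 lowered 6-fold, 100 were called up in each comparison and 70, 75 and 74 down in CAST+/129-, CAST-/129+ and CAST-/129- (31498 genes), with 0 unchanged genes called. The changed genes were drawn from genes above a wild type level that only Stra8 of the 7 members reached. Simulated counts varied by Poisson error alone, so the 0 says nothing of false calls from differences between clones or libraries. Alternatives covered library size, pseudo-value, threshold, reads before collapsing, promoter window and reference density. Software was matplotlib 3.10.9, scipy 1.17.1, pandas 2.3.3 and numpy 2.4.6 under Python 3.11.15. Results for some genes of the wider lists are not reported here.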

Additional observations from a re-analysis of the deposited data

How the results depend on the processing

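No paired analysis was possible because each group had 1 library. Of the members' log2 ratios under the alternatives, 156 stayed within the counting interval of the reported ratio and 27 did not. No called value changed direction under the alternatives run. Small differences below the threshold did: with reads before collapsing, the log2 ratio of Crabp1 in CAST-/129+ went from -0.05 to 0.14, and that of Stra6 from -0.01 to 0.11 in CAST-/129+ and from -0.08 to 0.05 in CAST-/129-. Stra6 in CAST-/129+ was also above 0 with median-of-ratios scaling (0.0067) and with counts thinned to the smallest library (0.024), and Rarb in CAST-/129- went from 0.02 to -0.01 with both strands. Of the counts, 122 values stayed within 1.5 times of the reported one and 46 did not, all listed here, and the cause was not tested beyond the construction of each setting. With a 2-fold threshold 1 member rose in CAST+/129- and 2 in CAST-/129+, Crabp2 being added, and with a pseudo-value of 1 there were also 2 in CAST-/129+. With a pseudo-value of 10 or a 5-fold threshold 1 member, Crabp1, rose in CAST-/129-, and with 5-fold 0 fell in CAST+/129-. Over all genes, up and down counts at a pseudo-value of 1 were 287 and 348 in CAST+/129-, 427 and 407 in CAST-/129+, and 701 and 565 in CAST-/129-, and at 10 they were 50 and 24, 75 and 32, and 120 and 50. At 2-fold they were 285 and 401, 384 and 482, and 630 and 605, and at 5-fold 49 and 14, 56 and 16, and 103 and 29. With all alignments as library size, 62 fell in CAST+/129- and 106 in CAST-/129-, in place of 96 and 161. For H3K4me3, 1 member promoter passed with 5 kb on each side, 5 at 3 times the mean and 0 at 10 times, and over all promoters 5587 passed with 5 kb and 5589 at 10 times. Of all promoters, 52.0% were above Crabp2 (3.83 times) and 56.9% above Cyp26a1 (2.85 times), so the share passing at 3 times lay between. For H3K27ac in F123, 2 members passed with 5 kb, at 3 times or against the mean of the own chromosome, Crabp2 being added, and over all promoters 3859 passed with 5 kb and 3567 at 10 times. For H3K27ac in J1, 1 member, Stra8, passed at 3 times, and over all promoters 2660 passed with 5 kb, 7550 at 3 times and 1886 at 10 times. The F123 H3K27ac library held 1576875 distinct alignments, the fewest of the 3.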
